A study of Mus musculus with 18 samples.

Results

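The genes described here are 40 interferon-stimulated genes of mouse brain, chosen by symbol from a table of normalized counts of 48440 genes. Each symbol named 1 gene of the table, and all 40 genes were among the 18808 genes with enough reads to be tested. RNA was sequenced from brain tissue of 18 libraries in 3 groups of 6. The first group was 5xFAD mice given a fucose diet for 1 month, the second was 5xFAD mice on the control diet for the same time, and the third was WT mice on the control diet. Fucose could be read only on the 5xFAD background. 5xFAD mice carry human transgenes with familial Alzheimer's mutations driven by neuronal Thy1 elements, and fucose is a sugar that cells build into glycoproteins. The labels give no age, strain, sex, brain region or batch, and they do not say that each library is a separate animal, so p-values measure only the spread between these libraries.

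Interferons are cytokines released when cells sense foreign or misplaced nucleic acid. Type I interferon signals through a receptor with Jak kinases to a complex that contains Stat2 and Irf9 and binds the interferon-stimulated response element in promoters. Interferon gamma has a receptor of its own and acts through the gamma-activated site in promoters, and guanylate-binding proteins and immunity-related GTPases respond strongly to it. The induced genes encode RNA sensors, antiviral effectors and feedback inhibitors, and in brain they are expressed by microglia, astrocytes, endothelial cells and infiltrating leukocytes. Microglia with raised interferon-stimulated genes have been described in mouse models of amyloid deposition.

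Promoter letters of these genes are shown first because they are what the rule that chose the genes did not use. The RefSeq promoter table of build GRCm38.p6 spans 250 bases before to 50 after each start site and held 30 of the 40 genes. The letters GAAANNGAAA, a core of the interferon-stimulated response element, occurred on either strand in 18 of these 30 genes, which is 60.0%, against 1079 of 27025 genes in the table, which is 3.99%. The letters TTCNNNGAA, a core of the gamma-activated site, occurred in 7 of the 30 genes, which is 23.3%, against 9.55% of genes in the table. The genes were named for their response to interferon, so these shares describe them and test nothing. The windows below are from genes whose values the text turns to. In each, capitals mark the occurrence of GAAANNGAAA or its reverse complement that the window was drawn around. The Ifit1, Isg15 and Bst2 windows hold further occurrences, left wholly or partly in lower case.
Ifit1, chr19:34640765-34640814, plus strand: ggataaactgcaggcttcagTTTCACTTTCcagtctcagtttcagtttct
Ifit3, chr19:34583353-34583402, plus strand: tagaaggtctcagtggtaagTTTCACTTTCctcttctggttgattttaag
Ifit3b, chr19:34607749-34607798, plus strand: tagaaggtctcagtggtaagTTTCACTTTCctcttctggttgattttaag
Isg15, chr4:156200861-156200910, minus strand: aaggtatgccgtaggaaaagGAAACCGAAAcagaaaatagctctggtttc
Rsad2, chr12:26456543-26456592, minus strand: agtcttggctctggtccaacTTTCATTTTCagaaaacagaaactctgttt
Bst2, chr8:71537573-71537622, minus strand: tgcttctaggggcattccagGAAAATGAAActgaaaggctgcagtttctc
Gbp2, chr3:142620584-142620633, plus strand: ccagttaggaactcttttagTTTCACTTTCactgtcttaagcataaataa
Igtp, chr11:58199502-58199551, plus strand: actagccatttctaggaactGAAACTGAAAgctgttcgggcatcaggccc
All 8 windows are written 5′ to 3′ on the strand of the gene, in RefSeq coordinates of GRCm38.p6, the assembly that mm10 names. In Ifit1 the first capital lies at -104 from the start site, in Isg15 at -72 and in Igtp at -34. The Ifit3 and Ifit3b windows are letter for letter the same over 50 bases, and another window with these letters is also identical between them. Both genes lie on the same stretch of chromosome 19, at chr19:34583531-34588731 and chr19:34607970-34613401, and 51.2% of the 50-base stretches of Ifit3 exons also occur in Ifit3b. Reads of the pair may therefore have been split or lost by the counting, and both are reported as uncertain. The same holds for Oas1a, which shares 57.6% of its 50-base stretches with Oas1g, and for Herc6, which shares 23.8% with Gm45193.

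Across all 40 genes, levels were higher on average in both 5xFAD groups than in WT, but no single gene passed the threshold in any comparison. The mean log2(normalized count + 1) over the 40 genes was 7.69 ± 0.49 in 5xFAD fucose libraries, 7.59 ± 0.50 in 5xFAD control libraries and 7.06 ± 0.55 in WT control libraries (SD, n = 6 each). The lowest, median and highest libraries had mean log2 levels of 6.87, 7.75 and 8.24 in 5xFAD fucose, 7.09, 7.41 and 8.40 in 5xFAD control, and 6.68, 6.84 and 8.09 in WT control. The groups overlapped. WT control 6 at 8.09 stood above all 5xFAD libraries except 5xFAD fucose 5 and 5xFAD control 4, WT control 4 at 7.23 stood above 5xFAD control 1 at 7.09 and 5xFAD control 2 at 7.22, and 5xFAD fucose 1 at 6.87 stood below WT control 3 and WT control 4. The difference of mean log2 level was 0.53 for 5xFAD control minus WT control, 0.63 for 5xFAD fucose minus WT control and 0.11 for 5xFAD fucose minus 5xFAD control, beside pooled SDs of 0.53, 0.52 and 0.49. Leaving out 1 library moved the difference between the diets to between -0.0021, without 5xFAD fucose 5, and 0.27, without 5xFAD fucose 1. Sequencing depth was 31.4 to 44.2 M counted reads per library. These scores have no test, since the members were chosen with results of these data known.

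**Figure D1:**
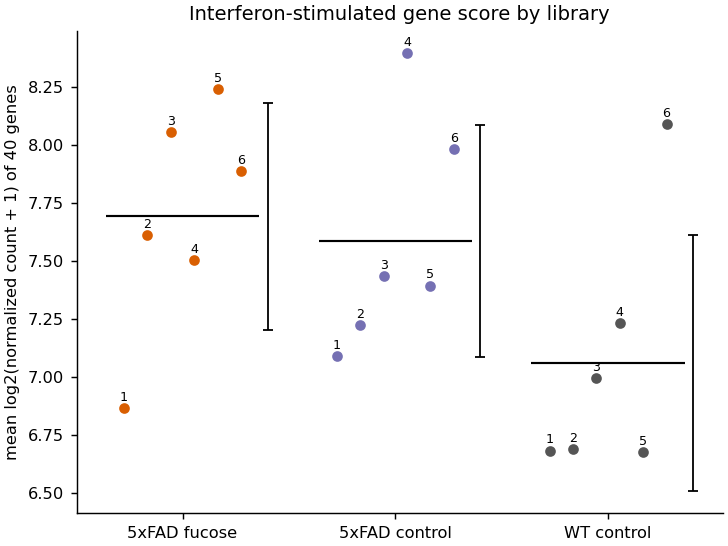
Mean log2(normalized count + 1) of the 40 interferon-stimulated genes in each of the 18 libraries, numbered by replicate. Points are libraries, horizontal lines are group means and bars are SD (n = 6). WT control 6 at 8.09 lies with 5xFAD fucose 5 at 8.24 and 5xFAD control 4 at 8.40, and 5xFAD fucose 1 at 6.87 lies with the other WT control libraries.

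In 5xFAD control against WT control, 38 of 40 genes had a log2 fold change above 0, against 48.4% of all genes tested. The median log2 fold change was 0.46 over the 40 genes and -0.0078 over all genes tested. None of the 40 was called at an adjusted p under 0.05 with limma, where 1.97% of all genes tested were called higher and 0.165% lower, 2.14% in either direction. At an unadjusted p under 0.05, 11 of 40 were higher and 0 lower, against 6.72% and 4.72% of all genes tested. The smallest adjusted p was 0.0507, for Ifi27. By other tools, edgeR with TMM called 1 of the 40 genes higher (Ifi27), where it called 1.97% of all genes higher, and DESeq2 called 4 (Ifi27, Ifi27l2a, Ifitm3 and Trim30a), where it called 2.54%. Ifi27 was also called by limma without WT control 3 (1.83% of all genes higher), without 5xFAD control 2 (1.76%) and, together with Ifitm3, without WT control 4 (2.01%).

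In 5xFAD fucose against WT control, 40 of 40 genes had a log2 fold change above 0, against 47.7% of all genes tested, with a median of 0.52 against -0.010. None was called, where 1.91% of all genes were called higher and 0.0904% lower. At an unadjusted p under 0.05, 14 of 40 genes were higher and 0 lower, against 6.09% and 4.77% of all genes. The libraries of 0 of 40 genes were separated between these groups, against 1.41% of all genes higher and 0.144% lower. edgeR with TMM called 2 of the 40 higher (Ifi27l2a and Trim30a), where it called 1.94% of all genes higher, and DESeq2 called 3 (those and Oas1a), where it called 2.39%. This comparison shares its WT libraries with the previous one, so the 2 sets of values are not separate evidence.

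In 5xFAD fucose against 5xFAD control, 27 of 40 genes had a log2 fold change above 0, against 49% of all genes tested. The median was 0.097 over the 40 genes and -0.0043 over all genes. Its sign rested on 1 library, since the median over the 40 genes was -0.026 without 5xFAD fucose 5 and 0.23 without 5xFAD fucose 1. Without the 3 libraries in which Xist lay below the Y-linked Ddx3y, which are 5xFAD fucose 5, 5xFAD control 5 and WT control 4, it was -0.056, in a fit added after the data were seen. None of the 40 was called with limma, edgeR or DESeq2, and 0 of all 18808 genes were called with limma. No member passed an unadjusted p of 0.05 in either direction, against 2.42% of all genes higher and 2.92% lower, and 0 of 40 had non-overlapping groups, against 0.0638% higher and 0.122% lower. For 22 of the 40 genes the 95% interval of the fold change lay inside a 2-fold change either way, and for 11 it lay inside a 1.5-fold change. For the other 18 genes the interval reached a 2-fold difference or more, so a difference of that size between the diets could go undetected at this spread. This comparison shares the 5xFAD control libraries with the first.

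**Figure D2:**
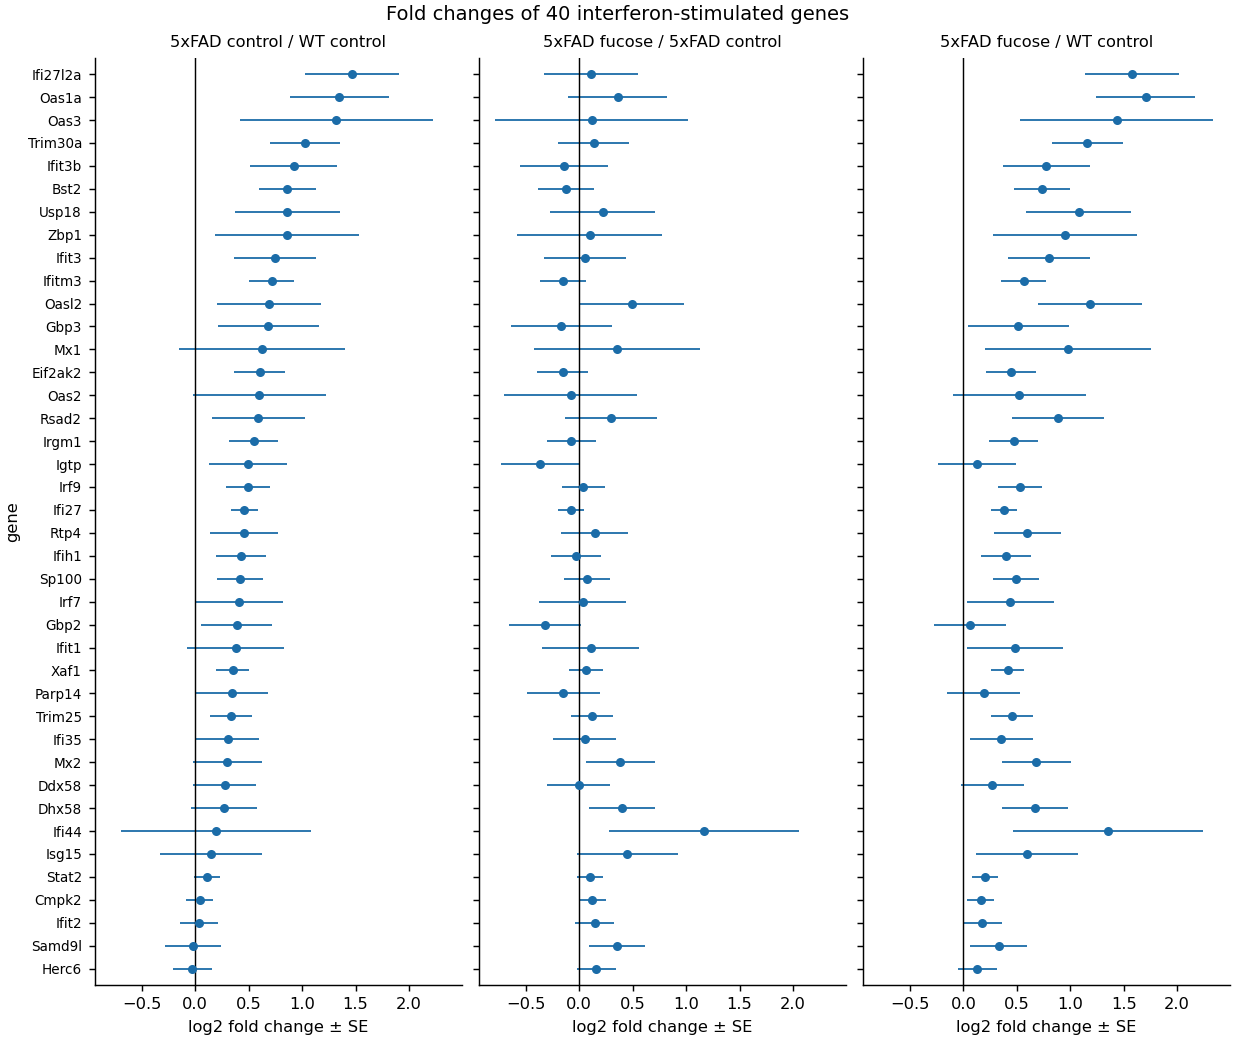
log2 fold change of each of the 40 genes in the 3 comparisons, ordered by the value in 5xFAD control against WT control; bars are moderated standard errors from limma. Of 40 points, 38 lie right of 0 for 5xFAD control against WT control, 40 for 5xFAD fucose against WT control and 27 for 5xFAD fucose against 5xFAD control.

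Within groups these genes were more variable than most. The median within-group SD of their log2 levels was 0.63, against 0.26 over all genes tested, and it ranged from 0.23 for Stat2 to 1.69 for Oas3. In each group a few libraries were the highest or lowest for most of the 40 genes. WT control 6 was the highest WT library for 31 of the 40 genes, where it was highest for 22.5% of all genes tested. 5xFAD control 4 was highest in its group for 30 of the 40 genes (16.0% of all genes) and 5xFAD control 6 for the other 10. 5xFAD fucose 5, one of the libraries with little Xist, was highest in its group for 24 of 40 (18.2%), and 5xFAD fucose 1 was lowest for 28 of 40.

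WT control 6 had the largest excess over its group, and that of 5xFAD control 4 was nearly as large. The median log2 difference of WT control 6 from the median of the other 5 WT libraries was 1.19 over the 40 genes. In it 21 of them were more than 2-fold higher. For 5xFAD control 4 against the rest of its group the median was 1.00, with 20 genes more than 2-fold higher. No share over all genes was computed for these 2-fold counts. The excess of WT control 6 was 2.09 on the mean log2 level in the IFIT family and 2.16 in the OAS family. In the membrane and nucleotide effectors it was 0.85. The OAS value includes Oas3, which had no read in 3 of the other WT libraries. Marker levels of WT control 6 are given here because the counts below depend on that library. WT control 6 had the highest mean log2 level of 5 B cell markers among WT libraries, 7.04 against 5.04 to 6.86 in the others, with 624 normalized counts of Igkc, an antibody light chain gene. It had the lowest level of 14 disease-associated microglia markers of all 18 libraries, 8.99. Their part in the excess was not tested.

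Without WT control 6, 2 of the 40 genes were called higher in 5xFAD control against WT control, Ifit3b and Eif2ak2, where 1.78% of all genes were called higher. At an unadjusted p under 0.05 the count was 18 of 40, against 6.36% of all genes. The 6 libraries of 5xFAD control lay above all 5 remaining WT libraries for Ifit3, Ifit3b, Usp18 and Trim30a, 4 of 40 genes against 2.07% of all genes. None of the 40 lay wholly below, against 0.421%. Ifit3 shares 51.2% of its 50-base stretches with Ifit3b, so these may not count as 2 separate genes. With all libraries kept, 0 of 40 genes had non-overlapping groups, against 1.8% of all genes higher and 0.266% lower in 5xFAD control against WT control. In 5xFAD fucose against WT control, 6 genes were called without WT control 6, namely Oas1a, Usp18, Trim30a, Ifi27l2a, Ifit3 and Rsad2, where 1.82% of all genes were called higher. Of the 40, 26 had an unadjusted p under 0.05, against 6.58% of all genes, and 0 had non-overlapping groups, against 1.69% higher and 0.273% lower. The median log2 fold change over the 40 genes was then 0.69 in that comparison and 0.62 in 5xFAD control against WT control. WT control 6 was singled out after its values were seen. Leaving out other libraries lowered the medians. Without 5xFAD control 4 the median in 5xFAD control against WT control was 0.37. There 7 genes had an unadjusted p under 0.05, in place of 11 with all libraries, and 0 were called (1.82% of all genes higher). Without 5xFAD fucose 5 the median in 5xFAD fucose against WT control was 0.41. There 9 genes passed that unadjusted p, in place of 14, and 0 were called (1.97%).

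**Figure D3:**
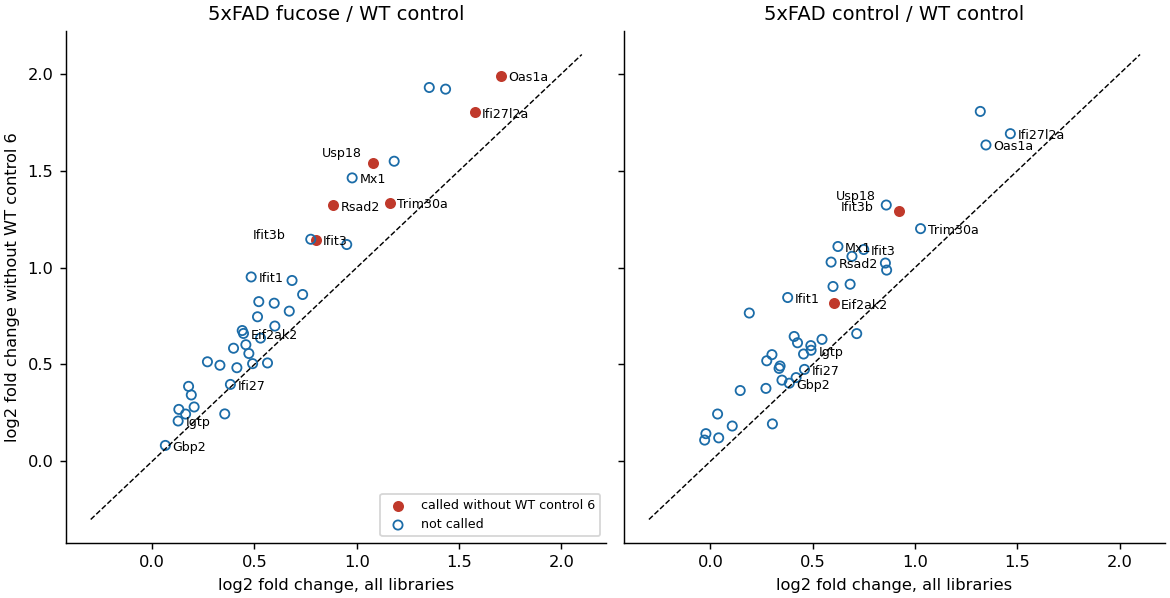
log2 fold change of each gene with all libraries (horizontal axis) against that without WT control 6 (vertical axis), for both comparisons with WT; the dashed line marks equal values. Red points are genes called at an adjusted p under 0.05 without that library, 6 in 5xFAD fucose against WT control and 2 in 5xFAD control against WT control, and Ifi44, Oas3, Mx1 and Ifit1 lie farthest above the line while Gbp2 and Ifi27 lie near it.

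At the low end, 5xFAD fucose 1 differed from the mean of the other fucose libraries by -0.99 in mean log2 level over the 40 genes. Over the OAS family it differed by -2.63, with Oas3 at 0 reads in 5xFAD fucose 1. That library also had the lowest levels in its group of 11 homeostatic microglia markers, 9.76 against 10.44 to 10.79, and of 14 disease-associated microglia markers, 10.83 against 11.36 to 12.08. Its red blood cell markers were the highest of all libraries at 12.04. Their part in the low interferon-stimulated levels was not tested. Without it, 4 of the 40 genes were called in 5xFAD fucose against WT control, namely Irf9, Trim30a, Oas1a and Ifi27l2a, where 1.94% of all genes were called higher.

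**Figure D4:**
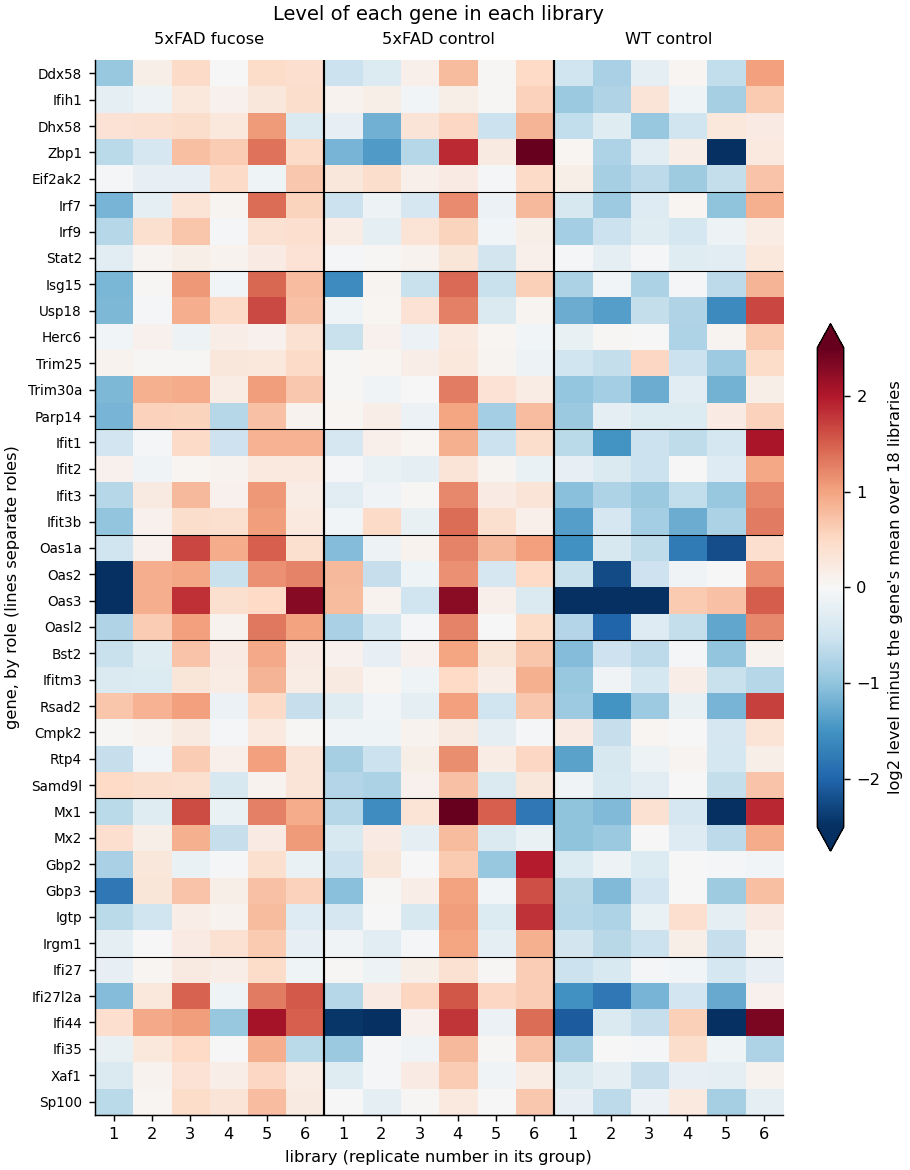
log2 level of each of the 40 genes in each library minus the gene's mean over 18 libraries, with genes grouped by role and libraries by group. Columns of high values stand at 5xFAD fucose 5, 5xFAD control 4, 5xFAD control 6 and WT control 6, and the low column in 5xFAD fucose is library 1.

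Levels below are normalized counts, and the values of a group are its lowest, median and highest library. Fold changes are log2 with the moderated standard error, and adjusted p-values are over all genes tested. Per kilobase of exon, Ifi27 and Ifitm3 were the most abundant of the 40 genes at 1731 and 1147 normalized counts per kilobase over all libraries, and Oas3 the least abundant at 1.49.

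Of the 5 nucleic acid sensors none was called with all libraries, and Eif2ak2 was called in 5xFAD control against WT control without WT control 6. Eif2ak2, the kinase PKR that stops translation on binding double-stranded RNA, had 172, 208 and 244 in 5xFAD control libraries, against 93.6, 114 and 289 in WT control libraries. WT control 6 was the highest of all 18, and the 6 libraries of 5xFAD control lay above 4 of 6 WT libraries. The log2 fold change was 0.60 ± 0.24 (adjusted p = 0.284), and without WT control 6 it was 0.82 ± 0.21 (adjusted p = 0.0348). The fucose libraries had 151, 166 and 282. Zbp1, a sensor of Z-form nucleic acid that can trigger necroptosis, had 22.1, 53.3 and 93.3 in 5xFAD fucose, 12.8, 32.1 and 240.3 in 5xFAD control and 3.54, 33.6 and 42.6 in WT control. Libraries 4 and 6 of 5xFAD control, at 135 and 240.3, lay far above the other 4, which had at most 42.4 and overlapped WT. Its log2 fold change in 5xFAD control against WT control was 0.86 ± 0.67 (adjusted p = 0.692). Dhx58, which encodes the regulatory helicase LGP2, had 66.3, 109.7 and 179.7 in 5xFAD fucose, 36.5, 90.0 and 153 in 5xFAD control and 43.4, 64.5 and 103 in WT control. All 3 groups overlapped, and 4 of 6 fucose libraries lay above every WT library. The log2 fold change for fucose against control diet in 5xFAD was 0.40 ± 0.31 (adjusted p = 0.833). The RNA sensors Ddx58, also called RIG-I, and Ifih1, also called MDA5, had log2 fold changes of 0.28 and 0.43 in 5xFAD control against WT control, and both were highest in WT control 6 among WT libraries, at 393 and 254.

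Of the transcription factors, Irf9 was the one with an unadjusted p under 0.05. Irf9, the DNA-binding partner of Stat2, had 361, 783 and 964 in 5xFAD fucose, 502, 670.2 and 878 in 5xFAD control and 329.8, 464 and 680.4 in WT control. All 6 libraries of 5xFAD control lay above the WT median and 3 lay above the highest WT library. On the log2 scale the difference was 0.49 ± 0.20 in 5xFAD control against WT control (adjusted p = 0.334) and 0.53 ± 0.20 in 5xFAD fucose against WT control (adjusted p = 0.294). Stat2, with the smallest within-group SD of the 40 genes, had log2 fold changes of 0.11 and 0.21 in these comparisons. Irf7, which drives interferon alpha genes, ranged from 103 in 5xFAD fucose 1 to 609.9 in 5xFAD fucose 5 within a single group. Its log2 fold changes were 0.41 and 0.44, and the fucose and control groups of 5xFAD differed by 0.031.

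In the ISG15 pathway and among the ubiquitin ligases, Trim30a and Usp18 had the largest fold changes. Trim30a, an interferon-induced tripartite-motif ligase, had 57.8, 221 and 262 in 5xFAD fucose, 119.7, 137 and 311 in 5xFAD control and 53.3, 67.4 and 140.3 in WT control. Only 5xFAD fucose 1 of the 12 libraries of 5xFAD lay below the WT median, and the highest WT value was that of WT control 6. Fitted as log2 fold change it was 1.03 ± 0.33 in 5xFAD control against WT control (adjusted p = 0.138) and 1.16 ± 0.33 in 5xFAD fucose against WT control (adjusted p = 0.0792). Usp18, which removes ISG15 and blocks the type I receptor, had 39.5, 134 and 275 in 5xFAD fucose, 67.9, 90.9 and 211 in 5xFAD control and 28.4, 43.9 and 279.6 in WT control. The highest WT value, in WT control 6, exceeded every other library, and the next WT value was 57.1, below all 6 libraries of 5xFAD control. With all libraries the log2 fold change of 5xFAD control against WT control was 0.86 ± 0.49 (adjusted p = 0.541), and without WT control 6 it was 1.32 ± 0.37 (adjusted p = 0.0807). In 5xFAD fucose against WT control it was 1.08 ± 0.49 with all libraries (adjusted p = 0.434) and 1.54 ± 0.37 without WT control 6 (adjusted p = 0.028). Isg15, the ubiquitin-like protein itself, ran from 56.8 to 345 within 5xFAD fucose, from 42.3 to 342 within 5xFAD control and from 72.8 to 230.3 within WT control. For Isg15 the log2 fold change was 0.15 in 5xFAD control against WT control and 0.45 in fucose against control diet. Herc6, the mouse ligase that attaches ISG15, Trim25, a ligase acting on RIG-I, and Parp14, an ADP-ribosyltransferase, had log2 fold changes of -0.028, 0.34 and 0.34 in 5xFAD control against WT control.

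The IFIT family encodes proteins that bind viral RNA and hinder its translation, and its 4 genes lie together on chromosome 19. WT control 6 was the highest WT library for all 4. Ifit1 had 105, 178 and 274 in 5xFAD fucose, 103, 159 and 278 in 5xFAD control and 52.6, 99.6 and 625 in WT control. WT control 6 was the highest of all 18 libraries, the next WT library had 111, and 5 of 6 libraries of 5xFAD control lay above that. The log2 fold change of Ifit1 in 5xFAD control against WT control was 0.38, and without WT control 6 it was 0.85 ± 0.29. Ifit3b had 117, 292 and 478 in 5xFAD fucose, 204, 279.5 and 611 in 5xFAD control and 88.6, 131 and 569 in WT control. The lowest library of 5xFAD control exceeded 5 of 6 WT libraries. Its log2 fold change was 0.92 ± 0.41 (adjusted p = 0.394), and 1.29 ± 0.30 without WT control 6 (adjusted p = 0.0237). Ifit3 showed the same layout, with 457 to 1291 in 5xFAD control against 269 to 365 in WT libraries other than WT control 6, which had 1285. For Ifit3 the log2 fold change was 0.75 with all libraries. Ifit2 had log2 fold changes of 0.036 in 5xFAD control against WT control and 0.18 in 5xFAD fucose against WT control, and it was 813 in WT control 6 against at most 418 in the other WT libraries.

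The OAS family makes oligoadenylates that activate RNase L, and its members on chromosome 5 had the largest median fold changes of any role, 1.01 in 5xFAD control against WT control and 1.31 in 5xFAD fucose against WT control. These medians over 4 genes include Oas3, near the detection limit, and Oas1a, which shares 57.6% of its 50-base stretches with Oas1g. Oas1a had 49.1, 113 and 225 in 5xFAD fucose, 32.3, 98.8 and 166 in 5xFAD control and 14.2, 34.1 and 92.9 in WT control. In each 5xFAD group 3 of 6 libraries lay above the highest WT library, WT control 6, and the lowest 5xFAD libraries were within the WT range. As a log2 fold change this was 1.35 ± 0.47 in 5xFAD control against WT control (adjusted p = 0.193) and 1.71 ± 0.47 in 5xFAD fucose against WT control (adjusted p = 0.0675). Oasl2, an OAS-like protein, had 196, 592 and 832 in 5xFAD fucose, 189, 327 and 779.9 in 5xFAD control and 82.4, 208 and 766 in WT control. Both 5xFAD groups overlapped each other and WT, in which library 6 was again far above the rest. For Oasl2 the log2 fold change was 0.49 ± 0.49 in fucose against control diet (adjusted p = 0.872) and 1.18 ± 0.49 in 5xFAD fucose against WT control (adjusted p = 0.369). Oas2 had 5.78, 90.6 and 111 in 5xFAD fucose, 31.1, 55.0 and 104 in 5xFAD control and 9.15, 38.2 and 104 in WT control. Its lowest value of all libraries was in 5xFAD fucose 1, and the log2 fold change in 5xFAD control against WT control was 0.60 ± 0.62 (adjusted p = 0.782). Oas3 was near the detection limit, with 0, 10.5 and 32.7 in 5xFAD fucose, 3.95, 6.50 and 32.4 in 5xFAD control and 0, 4.95 and 19.0 in WT control. It had no read in 1 fucose and 3 WT libraries, where 0 reads allow up to 2.66 to 3.72 normalized counts. Its fitted log2 fold change of 1.32 ± 0.90 in 5xFAD control against WT control (adjusted p = 0.628) depends on the pseudocount.

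Among effectors at membranes and in nucleotide metabolism, Bst2 and Ifitm3 had the smallest p-values in 5xFAD control against WT control. Bst2, or tetherin, holds budding virions at the cell surface. It had 304, 513 and 866 in 5xFAD fucose, 387, 515 and 883 in 5xFAD control and 211, 296 and 477 in WT control. In 5xFAD control 5 of 6 libraries lay above every WT library, and in 5xFAD fucose 4 of 6 did. The log2 fold change was 0.86 ± 0.26 for 5xFAD control against WT control (adjusted p = 0.122) and 0.74 ± 0.26 for 5xFAD fucose against WT control (adjusted p = 0.246). Ifitm3, which blocks fusion of viral and endosomal membranes, had 571, 835 and 1332 in 5xFAD fucose, 687, 843 and 1366 in 5xFAD control and 383, 522 and 820.3 in WT control. Its highest WT library was WT control 4, and 4 of 6 libraries in each 5xFAD group exceeded it. For Ifitm3 the log2 fold change in 5xFAD control against WT control was 0.72 ± 0.21 (adjusted p = 0.105). Samd9l, an antiviral factor that also restrains cell growth, had 77.6, 131 and 144 in 5xFAD fucose and 58.5, 94.9 and 169.9 in 5xFAD control, and 67.3, 89.9 and 169 in WT control. The diets overlapped, and its log2 fold change of 0.35 ± 0.26 had the smallest p of the 40 genes in that comparison (adjusted p = 0.829). Rsad2, or viperin, which makes a chain-terminating nucleotide, had 37.3 to 116 in 5xFAD fucose, 39.6 to 116 in 5xFAD control, 19.4 to 49.5 in 5 WT libraries and 186 in WT control 6. Its log2 fold change of 5xFAD fucose against WT control was 0.88 with all libraries and 1.32 ± 0.34 without WT control 6 (adjusted p = 0.0438). The neighbouring gene Cmpk2, a nucleotide kinase, had 0.041 in 5xFAD control against WT control, and Rtp4, a transmembrane chaperone with antiviral action, had 0.46.

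The large GTPases divided between the libraries. Mx1 and Mx2, dynamin-like restriction factors, had their highest WT value in WT control 6 and their highest 5xFAD control value in library 4. Mx1 had 12.5, 29.3 and 66.1 in 5xFAD fucose, 5.32, 19.5 and 144 in 5xFAD control and 1.77, 12.6 and 79.6 in WT control. 5xFAD control 6, one of the high libraries for other genes, was the lowest of its group at 5.32. For Mx1 the log2 fold change in 5xFAD control against WT control was 0.62 ± 0.78 (adjusted p = 0.826). Mx2 had 47.0, 87.5 and 147 in 5xFAD fucose, 53.4, 60.7 and 121 in 5xFAD control and 34.5, 50.1 and 134 in WT control. 2 of 6 fucose libraries lay above every 5xFAD control library, and the log2 fold change for fucose against control diet was 0.38 ± 0.32 (adjusted p = 0.846).

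Igtp, Gbp2 and Gbp3, GTPases that attack the vacuoles of intracellular pathogens, were instead highest in 5xFAD control 6. Igtp had 185, 275 and 516 in 5xFAD fucose, 222, 267 and 1046 in 5xFAD control and 174, 260.3 and 397 in WT control. The remaining 4 libraries of 5xFAD control, after 1046 in library 6 and 611 in library 4, had 222 to 299 and lay within the WT range. Its log2 fold change for fucose against control diet was -0.37 ± 0.37 (adjusted p = 0.873). Gbp2 had 810 in 5xFAD control 6 and 107 to 329 in the other 5xFAD control libraries, 118 to 273 in 5xFAD fucose and 163 to 211 in WT control. In WT control 6, where Ifit1 was 625, Gbp2 was 199 and lay inside the range of the other WT libraries. Gbp3 did not share this, since WT control 6 was its highest WT library at 339, against at most 203 in the others. The log2 fold changes of Gbp2 and Gbp3 in 5xFAD control against WT control were 0.39 and 0.68. Irgm1, an immunity-related GTPase of autophagy, had 414, 517 and 755 in 5xFAD fucose, 394, 462 and 960.0 in 5xFAD control and 296, 343 and 530.3 in WT control. All 12 libraries of 5xFAD lay above the WT median, and the highest WT value was in WT control 4. For Irgm1 the log2 fold change was 0.55 ± 0.23 in 5xFAD control against WT control (adjusted p = 0.339).

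**Figure D5:**
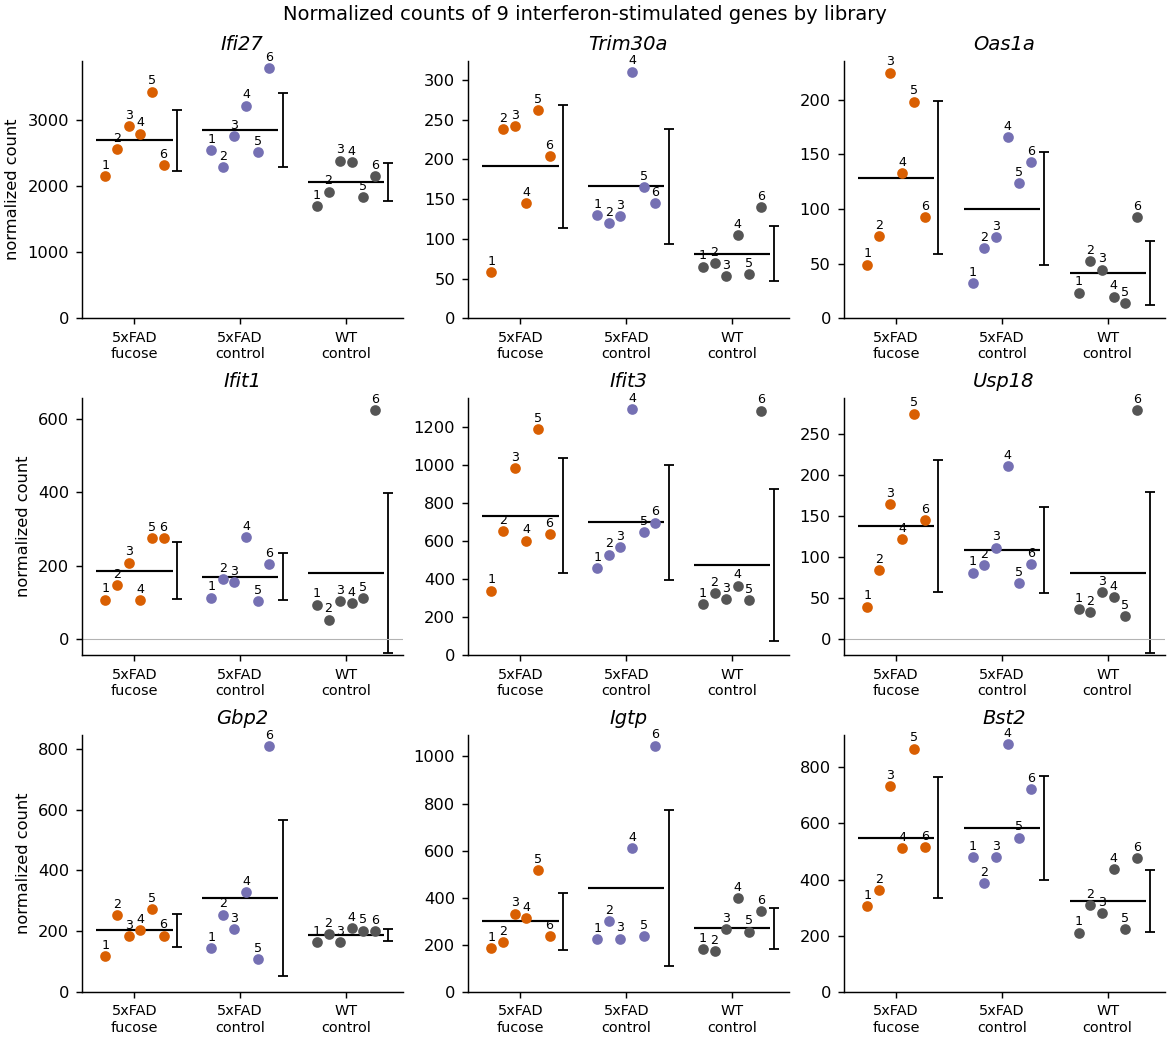
Normalized counts of 9 of the genes in each library, numbered by replicate; lines are group means and bars SD (n = 6). WT control 6 is far above the other WT libraries for Ifit1 at 625, Ifit3 at 1285 and Usp18 at 280, but not for Gbp2 at 199, and 5xFAD control 6 is far above the rest of its group for Gbp2 at 810 and Igtp at 1046.

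Of the remaining genes, Ifi27 came closest to the threshold. Ifi27, a small membrane protein of mitochondria and nucleus, had 2153, 2683 and 3435 in 5xFAD fucose, 2289.8, 2655 and 3794 in 5xFAD control and 1702, 2035 and 2389 in WT control. In 5xFAD control 5 of 6 libraries lay above the highest WT library, and WT control 6 at 2150.3 lay between the others. On the log2 scale the difference was 0.46 ± 0.12 in 5xFAD control against WT control (adjusted p = 0.0507) and 0.38 ± 0.12 in 5xFAD fucose against WT control (adjusted p = 0.153). Ifi27l2a, its neighbour on chromosome 12, had 47.2, 185 and 293 in 5xFAD fucose, 61.2, 146 and 297 in 5xFAD control and 28.6, 43.2 and 109 in WT control. All 12 libraries of 5xFAD lay above the WT median, and the lowest of each 5xFAD group was library 1. It had the largest log2 fold change of the 40 genes in 5xFAD control against WT control, 1.47 ± 0.44 (adjusted p = 0.109), and 1.58 ± 0.44 in 5xFAD fucose against WT control (adjusted p = 0.0792). Xaf1, a pro-apoptotic binding partner of XIAP, had 302, 443 and 558 in 5xFAD fucose, 316, 412 and 604 in 5xFAD control and 263, 331 and 416 in WT control. In 5xFAD fucose 5 of 6 libraries lay above the highest WT library, and in 5xFAD control 3 of 6 did. Fitted as log2 fold change it was 0.35 ± 0.16 in 5xFAD control against WT control (adjusted p = 0.382) and 0.41 ± 0.16 in 5xFAD fucose against WT control (adjusted p = 0.269).

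Sp100, a protein of nuclear bodies, had 120.4, 232 and 328 in 5xFAD fucose, 162, 194 and 308 in 5xFAD control and 108, 165 and 228 in WT control. The groups overlapped, with WT control 4 the highest WT library, and the log2 fold change in 5xFAD control against WT control was 0.42 ± 0.22 (adjusted p = 0.483). Ifi44, a cytosolic protein induced by type I interferon, had 14.3, 57.2 and 124 in 5xFAD fucose, 3.65, 28.0 and 100.1 in 5xFAD control and 2.66, 20.2 and 149.7 in WT control. The groups overlapped, and within each the highest library exceeded the lowest many times over. The log2 fold change for fucose against control diet was 1.16 ± 0.89 (adjusted p = 0.831), and that of 5xFAD control against WT control, 0.19 ± 0.89 (adjusted p = 0.964), changed sign when any of 4 single libraries was left out. Ifi35 had a log2 fold change of 0.30 in 5xFAD control against WT control.

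The rest of the pathway was read from lists of genes outside the 40. Interferon ligands were barely detected. Ifnb1, Ifna1, Ifna2, Ifna4, Ifna5, Ifnl2 and Ifnl3 had 0 reads in all 18 libraries, where 0 reads in a library allow 2.66 to 3.72 normalized counts, and none of 10 ligand genes had enough reads to be tested. Ifng, the gene of interferon gamma, had 21 reads over all libraries and none in 14, and WT control 4 held 13.5 normalized counts of it. WT control 4 was the highest WT library for 6 of the 40 genes, near its share of 15.8% of all genes tested. That count is therefore not particular to the 40 genes, and a link to the Ifng reads was not tested. These genes were Gbp2 at 211, Ifi35, Ifitm3, Igtp at 397, Irgm1 at 530.3 and Sp100. For Gbp2 the next WT library was close, at 201, and Gbp3 was highest in WT control 6. T cell markers had their highest mean log2 levels in 5xFAD fucose 5 at 5.11, WT control 4 at 5.09, WT control 1 at 4.91 and 5xFAD control 4 at 4.89, and their part in these results was not tested.

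Of 9 receptor and kinase genes, none was called in 5xFAD control against WT control, and Ifngr1, a chain of the interferon gamma receptor, rose in 5xFAD fucose against WT control with a log2 fold change of 0.38 ± 0.095 (adjusted p = 0.0287). In 5xFAD control against WT control the smallest p-values were those of Ifngr1, 0.35 ± 0.095 (adjusted p = 0.0581), and Il10rb, 0.51 ± 0.14 (adjusted p = 0.0684). Of 7 STAT and IRF genes outside the members, 3 rose in both comparisons with WT, namely Irf8, Irf5 and Stat3. Irf8, a factor of the microglial lineage, averaged 965 ± 173 normalized counts in 5xFAD control and 369.6 ± 78.1 in WT control, a log2 fold change of 1.39 ± 0.19 (adjusted p = 4.9e-05). Irf5 had 0.82 ± 0.13 (adjusted p = 0.000218). Of 11 tested genes of nucleic acid sensing, Tlr7, an endosomal RNA receptor, and Unc93b1, its chaperone, rose in both comparisons with WT, by 1.53 ± 0.29 and 0.94 ± 0.11 in 5xFAD control. None of 7 negative regulators was called, and Socs3 had the smallest p among them, with 0.69 ± 0.20 (adjusted p = 0.0746). In fucose against control diet none of these genes was called.

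More of the microglial markers than of the 40 genes were called in the comparisons with WT. The marker lists, like the 40 genes, were chosen with earlier results of these data known. This contrast therefore describes them and tests nothing. Of 14 disease-associated microglia markers, 13 rose in 5xFAD control against WT control and 13 in 5xFAD fucose against WT control, and of 11 homeostatic markers 5 rose in each. The summed normalized counts of the 14 markers were 162076 to 228117 in 5xFAD fucose, 189291 to 268196 in 5xFAD control and 87198 to 134755 in WT control, with no overlap of 5xFAD and WT. Apoe alone had 105088 to 181780, 139970 to 194787 and 70046 to 115705 in the same order, most of these sums. The mean log2 level, which weights the 14 markers alike, was 10.83 to 12.08, 11.28 to 11.86 and 8.99 to 9.27. Summed counts of the 11 homeostatic markers were 18066 to 28452, 22154 to 24424 and 12517 to 15777 in the same order. In bulk tissue more cells of a type and more RNA per cell cannot be told apart, for these markers as for the 40 genes. 5xFAD fucose 1 was the lowest of its group for the 40 genes and for both marker lists, and 5xFAD control 1 was the lowest of its group for the 40 genes at 7.09 and for homeostatic markers at 10.22. 5xFAD control 4, highest of its group for the 40 genes at 8.40, had a disease-associated microglia level of 11.38 in a range of 11.28 to 11.86, and WT control 6 had the lowest such level of all 18 libraries. Endothelial markers had mean log2 levels of 9.88 to 10.07 in 5xFAD fucose, 9.85 to 10.18 in 5xFAD control and 9.97 to 10.15 in WT control, and none of 10 was called. Of 8 astrocyte markers 1, the filament gene Gfap, was called higher in each comparison with WT, and their summed counts were 139120 to 185868 in 5xFAD fucose, 151680 to 181168 in 5xFAD control and 90274 to 104135 in WT control. In 5xFAD control against WT control the 8 markers had a median log2 fold change of 0.054, with 4 above 0. At an unadjusted limma p under 0.05, 3 were higher and 2 lower. In 5xFAD fucose against WT control the median was 0.18, with 6 above 0, 4 higher and 0 lower. The part of these cell types in the levels of the 40 genes was not tested. As a check of the labelled tissue, 10 neuronal markers summed to 314297 to 408735 normalized counts per library.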

How the data were processed

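Poly(A)-selected RNA of mouse brain was sequenced. Tools listed by the submitters' processing notes, without their roles, are DESeq2 2.11.40.8, featureCounts 2.0.3, Trimmomatic 0.39 and HISAT2 2.2.1, and mm10 is the build. Annotation and strandedness were not given in the sources used here. Each deposited value is a normalized count, a signal in no fixed unit, and dividing out each library's step gave whole reads for 100% of values within 0.001 reads. limma 3.58.1 with R 4.3.3 was fitted to log2(normalized count + 1), with trend and robust variance, over all 18 libraries. Fold changes of low genes are understated on this scale. The filterByExpr filter of edgeR 4.0.16 at a minimum count of 10 left 18808 genes. P-values were Benjamini-Hochberg adjusted over these, with a threshold of 0.05. Leave-one-out fits, other normalizations, filters and pseudocounts, and edgeR and DESeq2 1.42.0 on recovered reads, were alternatives. The fit was tested on simulated counts drawn independently for each gene, so a shift of many genes in a single library was not covered.

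Full values are given for the 12 genes with the smallest p in 5xFAD control against WT control, the 6 smallest in each other comparison and the 6 most variable. Ifit1 was added after its values were seen. Members and lists were chosen with earlier results of these data known. Depth was 31.4 to 44.2 M reads, and 3 reads, the limit that a count of 0 allows, equal 2.66 to 3.72 normalized counts, for counting error only. Shared 50-base stretches and exon lengths came from GENCODE M21.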

Additional observations from a re-analysis of the deposited data

Results flagged for a closer look

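Of 123 tests of a single library against the other 5 of its group, over members and scores, 20 had an extreme library by Dixon's criterion, involving 17 genes. That is 16.3% of tests. The rate of about 1 in 20 for this criterion holds only for normally distributed values. Genes were tested as normalized counts, not logs, and all 20 extreme libraries were the highest of their group. The share therefore cannot be set against 1 in 20. The genes are not independent, since 3 libraries account for all of them. WT control 6 was far above the other WT libraries for Ddx58 (393 normalized counts), Isg15 (230.3), Usp18 (280), Ifit1 (625), Ifit2 (813), Ifit3 (1285), Ifit3b (569), Oasl2 (766), Rsad2 (186), Samd9l (169), Mx1 (79.6), Mx2 (134) and Ifi44 (149.7). 5xFAD control 4 was far above its group for Usp18 (211), Trim30a (311), Ifit3 (1291), Ifit3b (611) and Oas3 (32.4). 5xFAD control 6 was far above its group for Ifih1 (241) and Gbp2 (810). No 5xFAD fucose library met the criterion.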

How the results depend on the processing

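Of 40 genes, none was called in fucose against control diet in 5xFAD under any alternative run. In 5xFAD control against WT control 0 were called as reported, and 1 was called with edgeR TMM (1.97% of all genes called higher), 1 with edgeR RLE (1.9%), 1 with TMM before limma (2.07%), 1 at a pseudocount of 5 (1.99%) and 1 with both groups fitted alone (1.96%). DESeq2 called 4 there (2.54%). Leaving out 1 library gave 0 to 2 in that comparison and 0 to 6 in 5xFAD fucose against WT control, where edgeR TMM called 2 (1.94%) and DESeq2 called 3 (2.39%). Chosen after seeing the data, leaving out the 3 libraries with little Xist gave 2 (1.74%) in 5xFAD control against WT control. In 5xFAD fucose against WT control it gave 0 (1.75%), with 7 genes at an unadjusted p under 0.05 in place of 14. Also chosen after seeing the data, both 5xFAD diets averaged against WT gave 4 (2.47%), the same without WT control 6 gave 10 (2.31%), and edgeR on 5xFAD control against WT control without WT control 6 gave 3 (1.83%). Whether replicate numbers pair the libraries was not settled by the labels or the values. Same-numbered deviations correlated at -0.055 to 0.33, -0.17 to 0.078 and -0.13 to 0.18. Of 12 libraries, 4, 3 and 4 correlated best with their own number. A replicate block called 3 genes in 5xFAD control against WT control (2.06%), 2 in 5xFAD fucose against WT control (2.02%) and 0 between diets. Ifi44 in 5xFAD control against WT control, at 0.19, became -0.011 with edgeR RLE and -0.0084 with DESeq2, and -0.31 to -0.12 without WT control 1, WT control 5, 5xFAD control 4 or 5xFAD control 6, and was 0.77 without WT control 6. The causes were not tested. Of 771 alternative values for 30 fold changes of named genes, 717 kept direction and side, 48 became called and 6 reversed. All 60 score alternatives moved by less than 1 SD, with leave-one-out ranges of 0.36 to 0.73, -0.0021 to 0.27 and 0.52 to 0.84. Oas3 and Mx1 gave no value at a minimum count of 50, nor did Oas3 with both groups fitted alone. TMM moved every fold change by under 0.1.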

Other observations

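Igkc, an immunoglobulin light chain gene, had 20.4 to 32.7 normalized counts in 5xFAD fucose libraries, 25.4 to 107 in 5xFAD control libraries and 23.6 to 624 in WT control libraries, highest in WT control 6. Ifnk had 4 reads and Ifne 6 reads over all 18 libraries.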
